A study of Danio rerio with 17 samples.

Results

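The sort effect of a gene, its log2 level in cells sorted as positive for a fluorescent reporter minus its log2 level in the negative cells of the same line, was compared between 2 transgenic zebrafish lines. Of the 17 libraries of the series 11 enter, and every one of the 21698 genes tested in both lines, of 30220 in the table, was placed by its pair of sort effects. From 4-day embryos of the double reporter line, whose genotype is given as Tg(acta2:mcherry);(foxc1b:egfp), came 2 positive libraries, labelled as mural cells, and 3 negative ones, labelled as non-mural. This line is called acta2/foxc1b below, and mural cells are the contractile and supporting cells around vessels. The kdrl line, Tg(kdrl:mcherry), gave 3 positive libraries of endothelial cells and 3 negative libraries of non-endothelial cells at 5 days. The MARIS protocol was used to fix the kdrl cells ahead of the sort, and the TotalScript kit to make their libraries. No fixation is named for the acta2/foxc1b line, for which cDNA amplified by REPLI-G received TruSeq adapters. Line, stage, fixation and library kit therefore change together, and their parts in any difference between the lines cannot be told apart. Each positive group holds whatever cells the reporter's promoter was active in, and the labels do not say which colours were gated in the double reporter line. They give all libraries 1 tissue, vascular smooth muscle, so groups were taken from the titles.

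Mural cells and endothelium are the outer and inner cells of the vessel wall. Mural cells make contractile proteins such as smooth muscle actin (acta2), transgelin and calponin, and deposit elastic and collagenous matrix. Endothelial cells carry the VEGF receptor kdrl and junction and adhesion proteins such as VE-cadherin and PECAM, arise beside blood cells in development, and are covered in the head by mural cells that come in part from mesenchyme, where the forkhead gene foxc1b is active.

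The libraries held 10474235 to 40868765 reads recovered from the deposited values, with 23590 to 29445 genes at 1 read or more. The labels do not tie replicates to different clutches of embryos, and p-values therefore reflect only how far these libraries vary, possibly for technical reasons. Replicates of the acta2/foxc1b line spread more widely than those of the kdrl line, with a median residual SD per gene of 0.98 against 0.55 on the log2 scale. Negative replicate 2 of the acta2/foxc1b line stood apart. Its correlation with the other negative libraries across genes was 0.713 and 0.717, where other replicate pairs had 0.854 to 0.946, and the chaperone gene hspa8 took 9.50% of its reads. Its mean log2 level of the epidermis genes was 13.36 (8.40 and 9.26 in the other negative libraries), that of liver, gut and pancreas genes 13.30 (8.57 and 8.45) and that of neuron genes 4.76 (9.13 and 9.20). Several results are given with and without it, but acta2/foxc1b effects given only with it may rest on it too.

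Opposite sort effects were called for more genes than shared ones, by rules that are not alike: an opposite gene needs 1 call, for the difference, and a shared gene a call in each line. Where a call in each line was asked of both kinds, 21 genes were opposite and 15 shared. The authors' deposited results have the reverse order by that rule, with 358 shared and 304 opposite genes. Without acta2/foxc1b negative replicate 2, 51 genes were called higher in both sorts and 164 lower in both, beside 348 and 304 opposite genes called for the difference. The difference of sort effects was called at an adjusted p under 0.05 for 411 genes (1.89% of genes tested), 232 with the higher signed effect in the acta2/foxc1b line (1.07%) and 179 with the higher signed effect in the kdrl line (0.825%). Of these, 172 genes (0.793%) had a log2 sort effect of at least 1 in the acta2/foxc1b line and of -1 or less in the kdrl line, and 131 genes (0.604%) were the reverse. A further 90 called genes were opposite in sign but under 1 in size in a line, and 18 had the same sign in both. By contrast, 6 genes (0.0277%) were called higher in both positive sorts and 9 genes (0.0415%) lower in both, again at a size of at least 1. For the acta2/foxc1b effect, in the fit over all 11 libraries, 69 genes were called higher and 63 lower (0.318% and 0.29%). For the kdrl effect it was 787 higher and 619 lower (3.63% and 2.85%, together 6.48%). In either direction the acta2/foxc1b calls were 132 genes (0.608%). As an alternative, the replicate number was used as a block in the kdrl line, where the numbers were taken to pair libraries. That pairing was read from these same libraries and not from the labels, so calls gained with the block are no separate support. With the block the acta2/foxc1b effect was called for 78 genes in all and the kdrl effect for 3633, and 4 genes were lower in both.

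**Figure D1:**
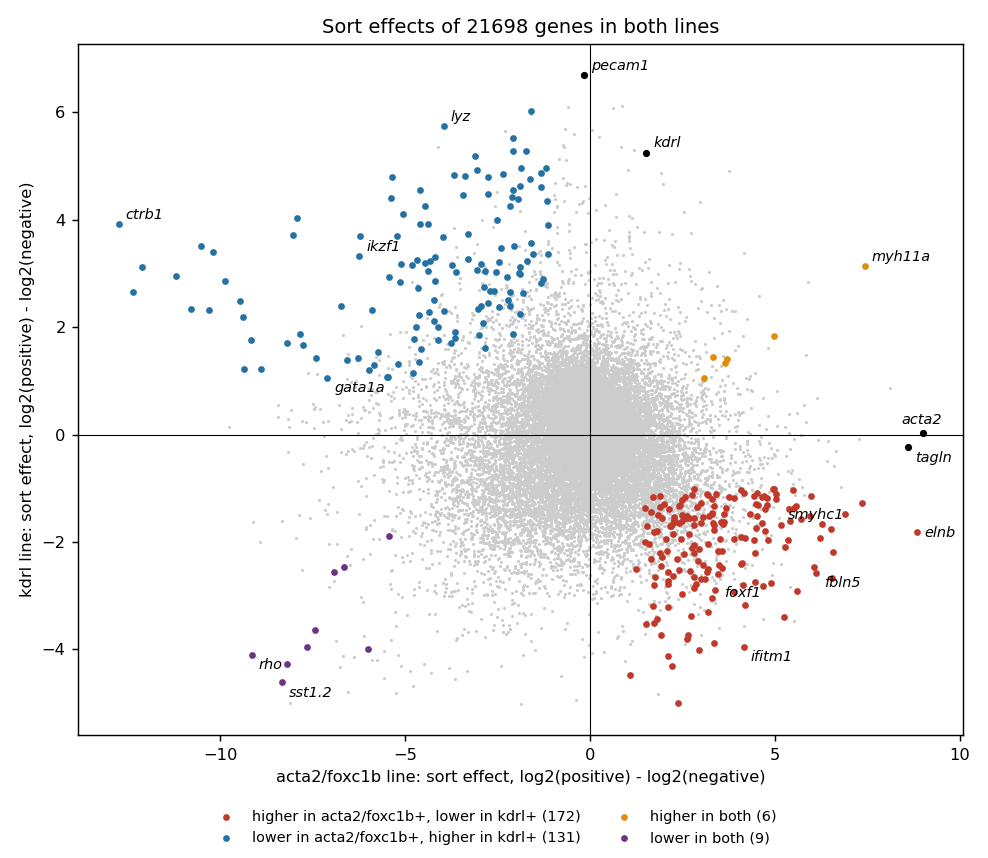
Each point is 1 of 21698 genes, with its log2 sort effect in the acta2/foxc1b line on the x axis and in the kdrl line on the y axis. The 172 red and 131 blue genes have opposite sort effects, the 6 orange and 9 purple genes shared ones, and black points such as acta2 and pecam1 lie near an axis.

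Across all genes tested the effects of the lines were almost unrelated, at a Pearson r of -0.04 and a Spearman rho of -0.05, where genes are not independent replicates. Without acta2/foxc1b negative replicate 2 these were 0.157 and 0.159. Signs were the same in both lines for 46.7% of genes, 4736 higher in both and 5407 lower in both, while 5181 were higher in acta2/foxc1b positive cells only by sign and 6374 in kdrl positive cells only by sign. The positive libraries lay wholly above or below the negative libraries in the acta2/foxc1b line for 29.6% of all genes, in the kdrl line for 31% and in both for 9.42%. In both lines this held for 159 of the 172 genes of the first opposite class and 101 of the 131 genes of the reverse class. Those genes were chosen by their effects in these same libraries, so their high share follows largely from the choice and is no separate support. The genes named below for the largest effects of each class had to be separated in both lines. Their separation is therefore a condition of naming and no support either. The classes depend on single libraries of the acta2/foxc1b line. The number of genes called for the difference was 1080 without negative replicate 2, 117 without negative replicate 1, 88 without negative replicate 3, 135 without positive replicate 1 and 0 without positive replicate 2, where 1712 genes had an unadjusted p under 0.05 by limma. With all 11 libraries, edgeR called 784 genes and DESeq2 2351. Over all 21698 genes in the acta2/foxc1b line, edgeR called 651 higher and 386 lower, and DESeq2 1548 and 1796. In the kdrl line edgeR called 151 higher and 36 lower, and DESeq2 554 and 458. At an unadjusted p under 0.05, limma had 2550 of the 21698 genes in the acta2/foxc1b line and 5307 in the kdrl line. Counts of list members by these tools or at that unadjusted level, given below, are to be read beside these totals.

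The genes that define each sort were mostly changed in 1 line and near 0 in the other, so they are not among the opposite genes. The acta2 transcript had 37792 and 44412 normalized read counts in the acta2/foxc1b positive libraries and 45.7, 137 and 75.7 in the negative ones. In the kdrl line it had 532, 771 and 86.3 in positive and 218, 426 and 362 in negative libraries. The groups stood far apart in the acta2/foxc1b line and overlapped in the kdrl line. The log2 sort effects were 9.02 (SE 1.31, adjusted p = 0.0112) and 0.03 (SE 0.63, adjusted p = 0.982), a difference of 8.99 (SE 1.45, adjusted p = 0.00994). The transgelin gene tagln (sort effects 8.60 and -0.24, difference 8.84), the calponin gene cnn1b (7.27 and -0.09, difference 7.36) and the leiomodin gene lmod1b (6.65 and -0.30, difference 6.95) had the same form. The foxc1b transcript was separated in the acta2/foxc1b line but passed the test in neither, at 744 and 1977 normalized read counts against 266, 415 and 215 in the acta2/foxc1b line and 1167, 1338 and 420.1 against 520.5, 1081 and 592 in the kdrl line. Its log2 sort effects were 2.07 (SE 0.92, adjusted p = 0.398) and 0.33 (SE 0.45, adjusted p = 0.672).

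On the endothelial side, pecam1 had 6354, 12487 and 2491 normalized read counts in kdrl positive and 51.8, 49.4 and 67.1 in kdrl negative libraries. In the acta2/foxc1b line it had 118 and 151 in positive and 92.1, 335 and 108 in negative libraries, which overlapped. Its log2 sort effects were 6.69 (SE 0.50, adjusted p = 7.68e-05) in the kdrl line and -0.16 in the acta2/foxc1b line (0.42 without negative replicate 2), a difference of -6.85 (SE 1.14, adjusted p = 0.0114). The endothelial receptor gene tie1 also differed between the lines (-5.30, SE 1.08, adjusted p = 0.0276), but not with the kdrl block (adjusted p = 0.0697). For kdrl itself the sort effects were 5.25 (SE 0.46, adjusted p = 7.68e-05) in the kdrl line and 1.52 (SE 0.95, adjusted p = 0.613) in the acta2/foxc1b line, where it was 0.93 without negative replicate 2. The kdrl transcript had 556 and 1477 normalized read counts in acta2/foxc1b positive and 282, 139.9 and 800.3 in negative libraries, and the difference of its effects did not pass the test (-3.73, SE 1.06, adjusted p = 0.0968). Neither did those of the VE-cadherin gene cdh5 (-5.51, SE 1.51, adjusted p = 0.087), the claudin gene cldn5b (-4.75, SE 1.46, adjusted p = 0.125) and egfl7, a secreted factor of endothelium (-3.88, SE 1.09, adjusted p = 0.0947). Without acta2/foxc1b negative replicate 2 each of these 4 differences was called, at adjusted p = 0.0155 for kdrl, 0.00984 for cdh5, 0.0295 for cldn5b and 0.00714 for egfl7. With the kdrl block cldn5b was called as well (adjusted p = 0.0203).

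**Figure D2:**
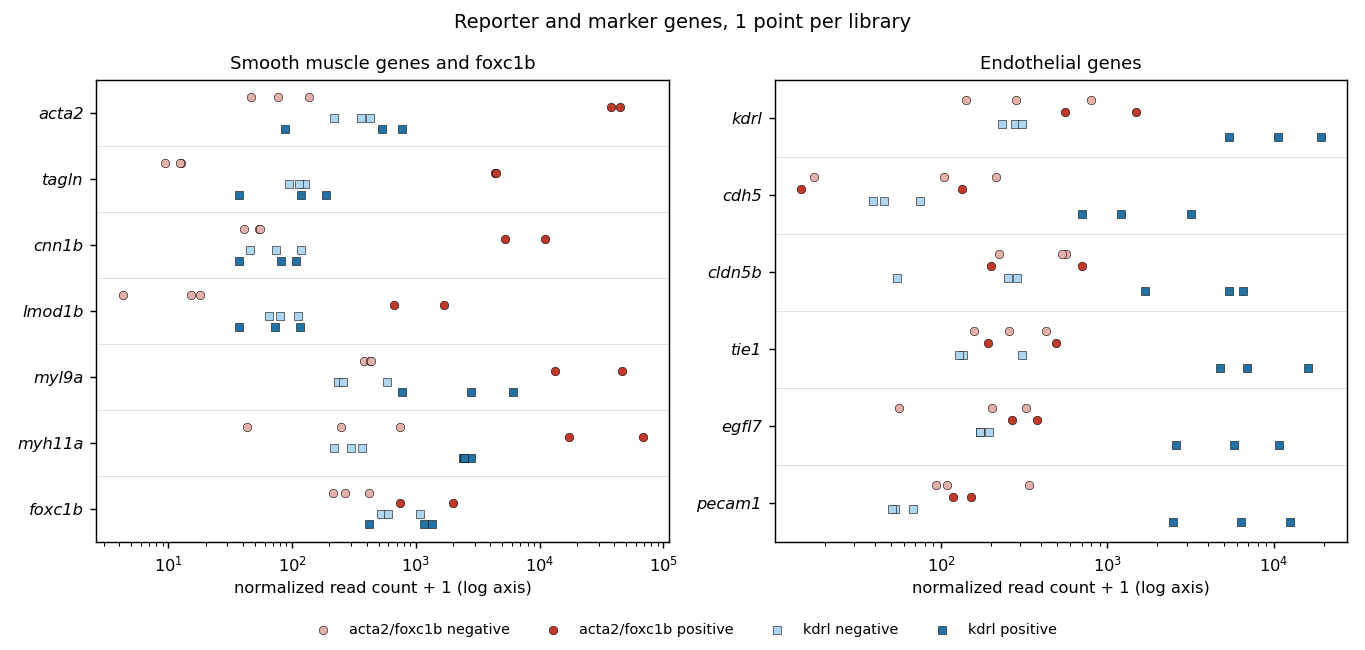
Normalized read count plus 1 on a log axis, 1 point per library, for smooth muscle genes and foxc1b (left) and endothelial genes (right). For acta2, tagln, cnn1b and lmod1b the acta2/foxc1b positive libraries stand alone at the right, and for the endothelial genes the kdrl positive libraries do.

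Elastic fibre and sarcomere genes led the 172 genes that were higher in acta2/foxc1b positive and lower in kdrl positive cells. Over the class the median log2 sort effects were 3.2 and -1.81. Of the 172, 30 were called for the acta2/foxc1b effect and 118 for the kdrl effect, 12 for both and 36 for neither. Of the class, 55 genes belonged to at least 1 of the 23 gene lists and 117 to none. The 12 called in both lines were the muscle genes neb, srl, smyhc1, tnnc1b, casq2, actc1a, ckmt2b, myl10 and myl13, the LIM domain gene fhl2a, the fibulin gene fbln5 and the forkhead gene foxf1. With the kdrl block srl (adjusted p = 0.0753) and myl10 (0.0631) were no longer called in the acta2/foxc1b line. In bulk libraries fewer cells of a type and less RNA per cell cannot be told apart, here and below.

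The elastin gene elnb had the largest difference of the class. It had 2531 and 6753 normalized read counts in acta2/foxc1b positive and 10.8, 3.25 and 13.6 in negative libraries, against 92.5, 18.4 and 25 in kdrl positive and 147, 115 and 118 in kdrl negative libraries. Neither line's groups overlapped, and they lay in opposite order. The log2 sort effects were 8.84 (SE 1.16, adjusted p = 0.00984) and -1.81 (SE 0.56, adjusted p = 0.0739), the difference 10.65 (SE 1.28, adjusted p = 0.00286). Its kdrl effect was called with the kdrl block (adjusted p = 0.0217). The fibulin gene fbln5, whose product helps to assemble elastic fibres, had 13741 and 87966 against 631, 351 and 549 normalized read counts in the acta2/foxc1b line and 209, 155 and 86.3 against 651, 1213 and 766 in the kdrl line. It too was separated in both lines, with log2 sort effects of 6.13 (SE 0.88, adjusted p = 0.0112) and -2.58 (SE 0.43, adjusted p = 0.00361). The aggrecan gene acana, for a matrix proteoglycan, had log2 sort effects of 5.59 and -1.33 (difference 6.92, SE 1.31, adjusted p = 0.0195), and the collagen VI gene col6a1 of 3.2 and -3.31 (difference 6.51, SE 1.01, adjusted p = 0.00822). Of the 61 extracellular matrix genes tested, 10 were in the opposite class and none in the reverse class. Their median sort effects were 2.22 in the acta2/foxc1b line (1.65 without negative replicate 2) and -1.09 in the kdrl line. The medians of all genes tested were -0.12 and 0.03. In the kdrl line 17 of the 61 were called lower and 1 higher, where edgeR called 0 lower (limma had 31 at an unadjusted p under 0.05) and DESeq2 9. The metalloprotease gene adamts15a had log2 sort effects of 5.26, which was 3.06 without negative replicate 2, and -3.40, a difference of 8.65 (SE 1.76, adjusted p = 0.0268) that was not called with the kdrl block (adjusted p = 0.0546).

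Striated muscle genes were the largest listed group in the class. Of 45 skeletal muscle genes tested, 16 were in the opposite class and none in the reverse, with medians of 2.93 and -1.37. In the acta2/foxc1b line 10 of them were called higher (23 by edgeR and 26 by DESeq2), and in the kdrl line 17 were called lower (3 by edgeR and 13 by DESeq2). The myosin light chain gene myl13 had 54689 and 65137 normalized read counts in acta2/foxc1b positive and 702, 904 and 389 in negative libraries, and 35.2, 21.2 and 72.7 in kdrl positive and 141, 127 and 303 in kdrl negative libraries. The groups were separated in both lines in opposite order, with log2 sort effects of 6.57 (SE 0.92, adjusted p = 0.00984) and -2.18 (SE 0.45, adjusted p = 0.0125). The slow myosin heavy chain gene smyhc1 had 7637 and 4683 against 111, 346 and 118 normalized read counts in the acta2/foxc1b line and 40.1, 28.7 and 52.2 against 153, 79.5 and 171 in the kdrl line, likewise separated. Its log2 sort effects were 5.17 (SE 0.83, adjusted p = 0.0194) and -1.68 (SE 0.40, adjusted p = 0.0268). The difference of sort effects was 8.52 (SE 0.87, adjusted p = 0.00189) for the sarcomeric creatine kinase gene ckmt2b, 6.67 (SE 0.77, adjusted p = 0.00272) for the calsequestrin gene casq2, which stores calcium in the sarcoplasmic reticulum, and 8.16 (SE 1.22, adjusted p = 0.00693) for the troponin C gene tnnc1b. The myosin light chain gene myl10 (9.22, SE 1.36, adjusted p = 0.00693), the parvalbumin gene pvalb4 (7.94, SE 1.42, adjusted p = 0.0149), the sarcalumenin gene srl (7.32, SE 1.19, adjusted p = 0.0104) and the alpha-actinin gene actn2b (4.59, SE 0.97, adjusted p = 0.0327) moved the same way. The summed level of the 46 skeletal muscle genes in the table was 372956 to 714005 normalized read counts in acta2/foxc1b positive and 28066 to 98244 in negative libraries, against 16526 to 21314 in kdrl positive and 18974 to 31091 in kdrl negative libraries. No library was at 0 for actc1b, mylpfa, myhz2 or ckma, defining markers of skeletal muscle, and the part of muscle cells in the acta2/foxc1b positive sort was not tested. Cardiac muscle genes had 2 of 28 in the class, with medians of 2.90 and -0.69.

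Of 37 smooth muscle contractile genes tested, 4 were in the opposite class and 2 were higher in both sorts. Their medians were 3.65 in the acta2/foxc1b line, where 11 were called higher (26 by edgeR and 27 by DESeq2) and none lower, and -0.23 in the kdrl line, where 3 were called higher and 3 lower. No member was lower in the acta2/foxc1b line at an unadjusted p under 0.05 by limma, and none was called lower by edgeR or DESeq2. The tropomyosin gene tpm2 had 26186 and 29836 normalized read counts in acta2/foxc1b positive and 713, 1449 and 710.4 in negative libraries, and 315, 398 and 577 in kdrl positive and 659, 803 and 1125 in kdrl negative libraries. Its groups were separated in both lines, and its log2 sort effects were 4.95 (SE 0.66, adjusted p = 0.00984) and -1.01 (SE 0.32, adjusted p = 0.0787), the latter called with the kdrl block (adjusted p = 0.0114). The other opposite members were the myosin light chain kinase gene mylkb (difference 7.13, SE 1.27, adjusted p = 0.0149), the desmin gene desma (4.26, SE 0.81, adjusted p = 0.0199) and ldb3a, which encodes a Z-disc protein (4.23, SE 0.77, adjusted p = 0.0162). At least the last 2 encode proteins that striated muscle also makes. gucy1a3, a subunit of the nitric oxide receptor guanylate cyclase, had 1814 and 4361 against 118, 6.51 and 102 normalized read counts in the acta2/foxc1b line and 54.8, 91.5 and 45.4 against 124, 124 and 363 in the kdrl line, a difference of sort effects of 7.48 (SE 1.38, adjusted p = 0.0177).

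**Figure D3:**
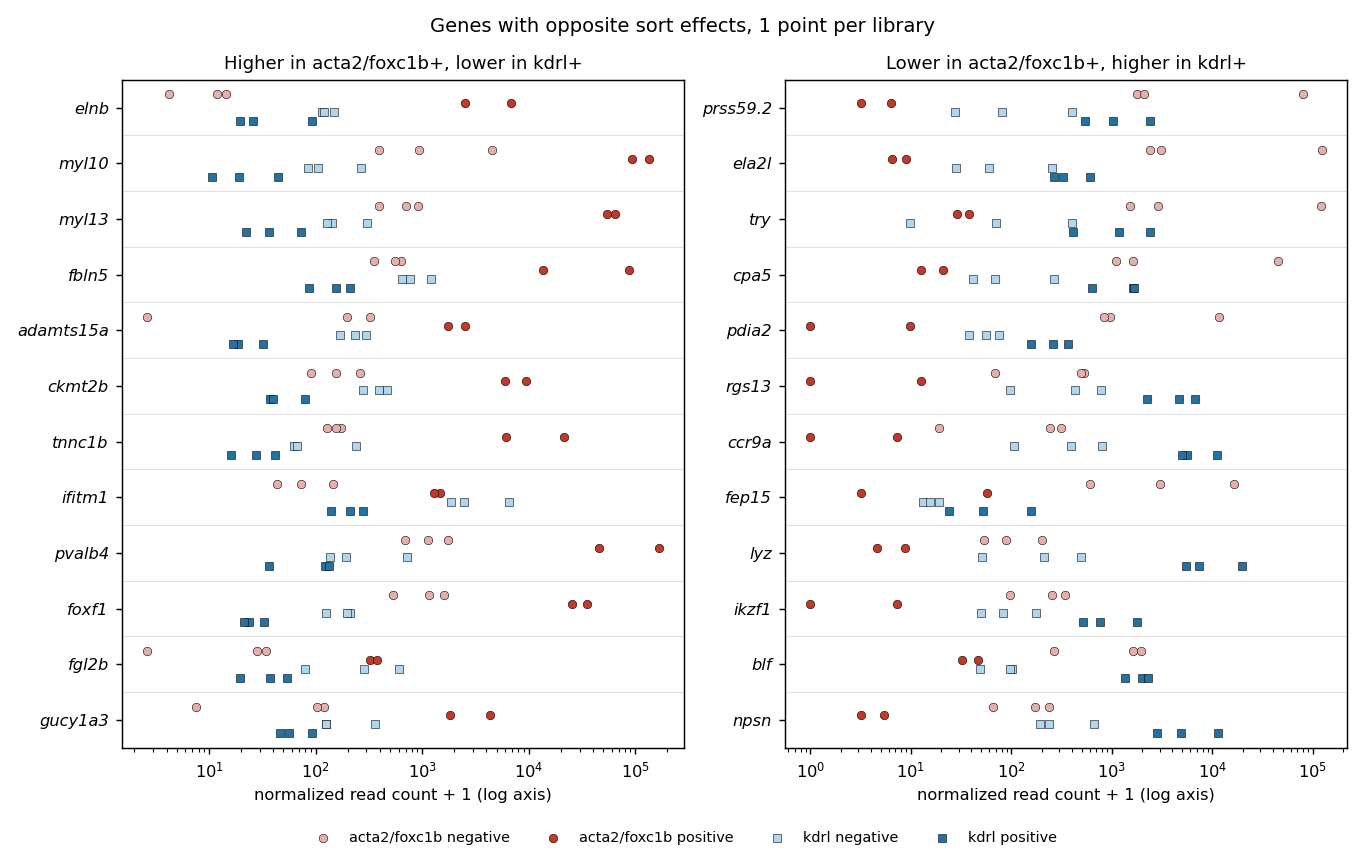
Normalized read count plus 1 on a log axis, 1 point per library, for the 12 genes of each opposite class named by rule. No overlap in either line was a condition of naming these genes. On the left the acta2/foxc1b positive libraries lie above their negatives and the kdrl positive libraries below theirs, as for elnb and myl13, and on the right the order is reversed in each line, as for lyz and ikzf1.

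Pericyte and mesenchymal genes were further members of the class. Of 24 pericyte and mural genes tested, 5 were in the opposite class (medians 3.06, or 2.54 without acta2/foxc1b negative replicate 2, and -0.85). The gene for PDGF receptor beta, pdgfrb, the receptor that draws mural cells to vessels, had 909.6 and 202 normalized read counts in acta2/foxc1b positive and 44.1, 3.25 and 33.6 in negative libraries, and 215, 92.2 and 114 in kdrl positive and 344, 297 and 216 in kdrl negative libraries. Its kdrl groups met closely, 215 against 216, without overlap. Its log2 sort effects were 4.52 (SE 1.12, adjusted p = 0.103) and -1.09 (SE 0.54, adjusted p = 0.235), and the difference of 5.61 (SE 1.24, adjusted p = 0.0398) was not called with the kdrl block (adjusted p = 0.0546). The endosialin gene cd248a differed by 7.36 (SE 1.37, adjusted p = 0.018). The difference was 6.40 (SE 1.42, adjusted p = 0.0399) for the proteoglycan gene cspg4 and 3.88 (SE 0.88, adjusted p = 0.0423) for the Notch receptor gene notch3. With the kdrl block neither was called (adjusted p = 0.054 and 0.07). Beside pdgfrb and notch3, the defining pericyte markers abcc9 (sort effects 3.68 and -0.04), kcne4 (3.52 and 0.65) and ndufa4l2a (0.48 and -0.61) were not in the class. Their differences did not pass the test (adjusted p = 0.119, 0.357 and 0.824). foxf1, a forkhead factor of visceral mesoderm, had 25323 and 35571 normalized read counts against 1593, 533 and 1167 in the acta2/foxc1b line and 22.5, 32.1 and 20.4 against 210.3, 194 and 126 in the kdrl line. Both lines were separated, and the log2 sort effects were 4.91 (SE 0.69, adjusted p = 0.00984) and -2.76 (SE 0.33, adjusted p = 0.000526).

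Of 27 tendon and fibroblast genes tested, 7 were in the opposite class, with medians of 1.32 and -2.55. In the kdrl line 14 of the 27 were called lower, against 2.85% of all genes, and 4 had a positive estimate. The mesenchymal transcription factor gene twist1a had 85.6, 175 and 22.7 normalized read counts in kdrl positive and 1036, 1820.4 and 519 in kdrl negative libraries, and 4823 and 4085 against 1266, 250.4 and 1179 in the acta2/foxc1b line. The log2 sort effect was -3.80 (SE 0.65, adjusted p = 0.00434) in the kdrl line, while that of 2.62 (SE 1.34, adjusted p = 0.489) in the acta2/foxc1b line did not pass the test. The difference was 7.24 (SE 1.57, adjusted p = 0.0359) for its relative twist2 (adjusted p = 0.0581 with the kdrl block). Without acta2/foxc1b negative replicate 2 the acta2/foxc1b effect of twist2 was 1.35 in place of 3.35, with the difference still called (adjusted p = 0.000639). The difference was 5.33 (SE 1.06, adjusted p = 0.0246) for the homeobox gene prrx1b and 5.66 (SE 0.94, adjusted p = 0.0114) for pcolcea, an enhancer of collagen processing. Head mesenchyme transcription factors had 6 of 47 in the class (medians 1.38, or 0.84 without acta2/foxc1b negative replicate 2, and -0.67), among them foxl1 (6.77, SE 1.51, adjusted p = 0.04) and alx1 (5.47, SE 1.23, adjusted p = 0.0419), neither called with the block (adjusted p = 0.0672 and 0.0713). The others were counted above as well, twist1a, prrx1a and prrx1b on the tendon and fibroblast list and foxf1 on the pericyte and mural list. Cartilage and bone genes had 5 of 32 (medians 1.23 and -1.85), among them hapln1a, which encodes a hyaluronan link protein (6.12, SE 1.11, adjusted p = 0.0162), the chondromodulin gene lect1 (4.36, SE 0.84, adjusted p = 0.0216), the collagen IX gene col9a3 (3.76, SE 0.81, adjusted p = 0.0357) and epyc, a small proteoglycan gene (3.97, SE 0.87, adjusted p = 0.0389). With the block epyc was not called (adjusted p = 0.0867). Without acta2/foxc1b negative replicate 2 the acta2/foxc1b effect of hapln1a was 1.60 in place of 2.73, with the difference still called (adjusted p = 0.0014). For tendon and fibroblast genes the kdrl line held more calls by each tool. Which line held more depended on the tool for the head mesenchyme list and the cartilage and bone list. By limma 14, 14 and 12 members of these 3 lists, in this order, were called lower in the kdrl line. In the acta2/foxc1b line 1, 1 and 0 were called higher. There 6 cartilage and bone genes were higher and 2 lower at an unadjusted p under 0.05 by limma. By edgeR these counts were 4, 1 and 2 in the kdrl line and 3, 9 and 4 in the acta2/foxc1b line, and by DESeq2 13, 9 and 12 against 8, 17 and 9.

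Signalling genes contributed single members. Of 66 TGF-beta and BMP genes 3 were in the opposite class, the ligand genes tgfb2 (5.77, SE 1.13, adjusted p = 0.0232) and bmp2a (3.60, SE 0.77, adjusted p = 0.0334) and the follistatin-like gene fstl3 (6.98, SE 1.54, adjusted p = 0.039), whose product binds activin. Blocking by kdrl replicate, bmp2a was not called (adjusted p = 0.0544). Leaving out acta2/foxc1b negative replicate 2 took the acta2/foxc1b effect of fstl3 from 2.96 to 1.58, with the difference still called (adjusted p = 0.00738). The list's medians were 1.37 and -0.13. Of 25 PDGF and VEGF genes pdgfrb and pdgfrl (5.26, SE 1.06, adjusted p = 0.026) were in it and flt1 in the reverse class (medians 0.99, or 0.64 without acta2/foxc1b negative replicate 2, and 0.49). Without that library the acta2/foxc1b effect of pdgfrl was 0.85, under the minimum of 1, so pdgfrl left the opposite class. Of 33 Notch genes notch3 was in it and the Fringe gene mfng (-4.50, SE 0.99, adjusted p = 0.0386) in the reverse class, with medians of -0.24 (-0.41 without that library) and 0.16. The remaining genes named by rule were ifitm1, an interferon-induced membrane protein gene, and fgl2b, a fibrinogen-like gene. ifitm1 had 1474 and 1284 against 143, 42.3 and 72.5 normalized read counts in the acta2/foxc1b line and 139, 275 and 209 against 1860.1, 6499 and 2477 in the kdrl line, and its log2 sort effects were 4.16 (SE 0.93, adjusted p = 0.0707) and -3.95 (SE 0.45, adjusted p = 0.00031), the former called with the kdrl block (adjusted p = 0.0455). The difference for fgl2b was 7.51 (SE 1.69, adjusted p = 0.0423), and it was not called with the kdrl block (adjusted p = 0.0768).

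Blood cell genes, endothelial transcription factor and receptor genes and digestive enzyme genes were among the reverse class of 131 genes, lower in acta2/foxc1b positive and higher in kdrl positive cells. The median log2 sort effects of the class were -3.94 and 3.03. Of the 131, 27 were called for the acta2/foxc1b effect and 99 for the kdrl effect, 9 for both and 14 for neither, and 102 belonged to no gene list. The 9 called in both were ikzf1, blf, ncf1, plek, fmnl1a, cxcr3.2, mafbb, cpa5 and prss59.2. They take in the Ikaros gene ikzf1 and the zinc finger gene blf, transcription factors of blood cells, and ncf1, a subunit of the oxidase of phagocytes. With the kdrl block blf (adjusted p = 0.0907) and cpa5 (0.0573) were no longer called in the acta2/foxc1b line.

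Of 60 endothelial genes tested, 6 were in the reverse class and 43 were called higher in kdrl positive cells (28 by edgeR). The list's medians were 0.38 in the acta2/foxc1b line (0.24 without negative replicate 2) and 3.21 in the kdrl line, and its summed level was 37162 to 40729 normalized read counts in acta2/foxc1b positive and 33803 to 35442 in negative libraries. None of the 60 was called in the acta2/foxc1b line by limma or edgeR, and DESeq2 called 4 higher and 4 lower. By limma 2 were higher and 5 lower at an unadjusted p under 0.05. That is near the share over all genes there, 2550 of 21698. The VEGF receptor gene flt1 had 3351, 5373 and 1824 normalized read counts in kdrl positive and 118, 75.9 and 143 in kdrl negative libraries, and 74.8 and 24.5 against 119, 91.1 and 118 in the acta2/foxc1b line. Both lines were separated, in opposite order, but the log2 sort effect of -1.32 (SE 0.88, adjusted p = 0.647) in the acta2/foxc1b line did not pass the test. In the kdrl line it was 4.87 (SE 0.42, adjusted p = 7.68e-05). The difference was -7.56 (SE 1.14, adjusted p = 0.00693) for fli1b, an ETS transcription factor gene of endothelium, -6.99 (SE 1.37, adjusted p = 0.0232) for sox18, an endothelial SOX factor gene, and -6.42 (SE 1.06, adjusted p = 0.0112) for lmo2, a regulator of blood and endothelial precursors. In the acta2/foxc1b line the effects of fli1b (-2.76, adjusted p = 0.293), sox18 (-1.72, 0.689) and lmo2 (-2.16, 0.394) did not pass the test. The sox18 groups overlapped there, and its effect was -1.04 without negative replicate 2. aplnrb and ecscr were the other listed members.

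Leukocyte genes had 10 of 38 tested in the reverse class, and 16 of the 38 were called higher in kdrl positive cells (6 by edgeR). The medians were -1.97 in the acta2/foxc1b line and 2.32 in the kdrl line. The lysozyme gene lyz had 7395, 5494 and 19632 normalized read counts in kdrl positive and 50.3, 208 and 486 in kdrl negative libraries, and 3.56 and 7.78 against 199.7, 52.0 and 88.0 in the acta2/foxc1b line. The groups were separated in both lines. The log2 sort effects were -3.96 (SE 1.44, adjusted p = 0.276) in the acta2/foxc1b line and 5.74 (SE 0.70, adjusted p = 0.000556) in the kdrl line, a difference of -9.69 (SE 1.60, adjusted p = 0.0112). ikzf1 had 762, 519.8 and 1776 against 48.8, 81.2 and 174 normalized read counts in the kdrl line and 6.24 and 0 against 255, 96.0 and 340.3 in the acta2/foxc1b line, and was called in both, at 3.31 (SE 0.60, adjusted p = 0.00634) and -6.24 (SE 1.24, adjusted p = 0.0477). npsn, a protease gene of neutrophils, differed by -9.15 (SE 1.27, adjusted p = 0.00529), blf by -9.15 (SE 1.02, adjusted p = 0.00272), the chemokine receptor gene ccr9a by -9.79 (SE 1.71, adjusted p = 0.014) and the G protein regulator gene rgs13 by -9.90 (SE 1.74, adjusted p = 0.0143). The defining leukocyte markers ptprc, coro1a, lcp1, spi1b and mpx were at 0 in no library. ptprc had 1461 to 3795 normalized read counts in kdrl positive libraries against 120 to 474 in kdrl negative ones, and 5.56 to 26.7 in acta2/foxc1b positive against 104 to 295 in negative ones. The part of leukocytes in the kdrl positive sort was not tested. cpa5, on the leukocyte list as a mast cell gene, followed the pancreas genes across libraries, with 1087, 44778 and 1608 normalized read counts in the acta2/foxc1b negative libraries.

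Erythroid genes had 2 of 19 tested in the reverse class, and medians of -4.07 and 0.49. The transporter gene slc4a1a, of the red cell membrane, had 80.2 and 14.4 normalized read counts in acta2/foxc1b positive and 2407, 1769 and 1992 in negative libraries, and 1218, 1260.2 and 1372 in kdrl positive and 745, 341 and 557 in kdrl negative libraries. Its groups were separated in both lines, with log2 sort effects of -5.85 (SE 0.77, adjusted p = 0.00984) and 1.3 (SE 0.37, adjusted p = 0.0561), the latter called with the kdrl block (adjusted p = 0.0224). The erythroid transcription factor gene gata1a had 0.891 and 0 normalized read counts in the acta2/foxc1b positive libraries, 1 read in all, and 179, 197 and 188 in the negative ones. The ratio of means was 421, with a counting interval of 75.6 to 16646 (exact Poisson, 95%). In the kdrl line gata1a had 93.9, 96.3 and 220.3 in positive and 80.0, 47.7 and 56.9 in negative libraries, a log2 sort effect of 1.05 (SE 0.46, adjusted p = 0.185) that did not pass the test.

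Digestive enzyme genes had the largest differences of either opposite class, and 10 of 45 liver, gut and pancreas genes tested were in the reverse class. The chymotrypsinogen gene ctrb1 had 8292, 568665 and 14246 normalized read counts in acta2/foxc1b negative and 33.9 and 0 in positive libraries, and 3179, 712 and 1194 in kdrl positive and 80.0, 12.4 and 729.9 in kdrl negative libraries. Negative replicate 2 of the acta2/foxc1b line was far above every other library, and the kdrl groups overlapped. The difference was -16.66 (SE 2.90, adjusted p = 0.014), and it was called without negative replicate 2 as well (adjusted p = 0.0036). The trypsin-type protease gene prss59.2 had 1795, 79859 and 2079 normalized read counts against 5.35 and 2.22 in the acta2/foxc1b line and 2414, 534 and 1013 in kdrl positive against 79.3, 26.5 and 398 in kdrl negative libraries. It was separated and called in both lines, with a difference of -14.04 (SE 2.16, adjusted p = 0.00767), but with the kdrl block its acta2/foxc1b effect was not called (adjusted p = 0.0547). For try, the trypsin gene, the difference was -11.96 (SE 2.65, adjusted p = 0.0398), for the elastase gene ela2l -12.62 (SE 1.91, adjusted p = 0.00693) and for pdia2, a protein disulfide isomerase gene, -11.56 (SE 1.42, adjusted p = 0.00297). The elastase gene ela2 held 2 reads in the acta2/foxc1b positive libraries, a ratio of negative to positive means of 100865 with a counting interval of 27922 to 832871. That ratio rests on negative replicate 2, and without it the ratio was 1813, with an interval of 502 to 14973. Reads of prss59.1 and prss59.2, and of ela2 and ela2l, may be shared between near-identical copies, and their split is uncertain. fep15, a fish selenoprotein gene, differed by -9.70 (SE 1.8, adjusted p = 0.018). In the kdrl line the rise did not pass the test for try (4.02, adjusted p = 0.0571), ela2l (2.32, 0.116), pdia2 (2.19, 0.0539) and fep15 (1.87, 0.168). With the kdrl block it was called for try (adjusted p = 0.0101), ela2l (0.034) and pdia2 (0.0279), but not for fep15 (0.0745). The list's medians were -3.31 and 1.22, with -2.12 in the acta2/foxc1b line without negative replicate 2. In the kdrl line limma called 2 of the 45 higher and 1 lower, with 17 higher at an unadjusted p under 0.05. edgeR and DESeq2 called 0 there. The difference was called for 10 by limma, 11 by edgeR and 2 by DESeq2, all with the lower effect in the acta2/foxc1b line. Its summed level in the kdrl line was 36091 to 91012 normalized read counts in positive and 6762 to 39730.0 in negative libraries, which overlapped, and the part of digestive cells or of their free RNA was not tested.

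**Figure D4:**
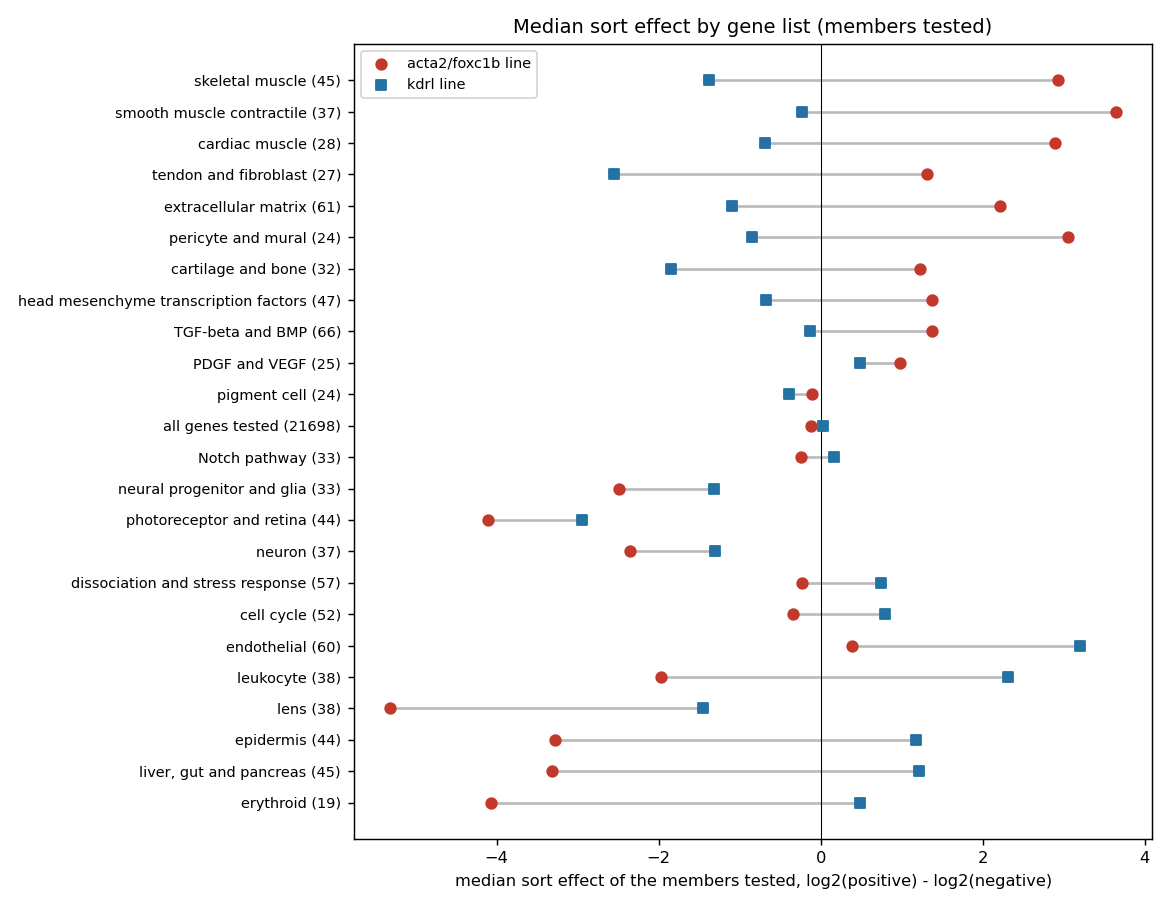
Median log2 sort effect of the tested members of each of 23 gene lists and of all genes, with the acta2/foxc1b line as circles and the kdrl line as squares. Muscle, matrix and mesenchyme lists lie to the right for the acta2/foxc1b line and to the left for the kdrl line, blood, epidermis and digestive lists the other way round, and neural and retinal lists lie to the left for both lines.

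The 6 genes higher in both positive sorts included smooth muscle and cytoskeleton genes. The smooth muscle myosin heavy chain gene myh11a had 17169 and 68995 normalized read counts in acta2/foxc1b positive and 246, 42.3 and 739 in negative libraries, and 2394, 2766 and 2429.8 in kdrl positive and 218, 365 and 295 in kdrl negative libraries. Positive libraries stood above negative ones in both lines. The log2 sort effects were 7.43 (SE 1.0, adjusted p = 0.00984) and 3.13 (SE 0.48, adjusted p = 0.00225), and their difference of 4.30 (SE 1.11, adjusted p = 0.0708) did not pass the test, though it did without acta2/foxc1b negative replicate 2 (adjusted p = 0.0395), as did that of rbpms2a (0.0246). In the kdrl line its rise stood beside log2 sort effects of 2.84 (SE 0.61, adjusted p = 0.0155) for the myosin light chain gene myl9a but of 0.03 for acta2, -0.24 for tagln and -0.09 for cnn1b. rbpms2a, an RNA-binding protein gene, had 10417 and 14159.9 normalized read counts against 334, 447 and 385 in the acta2/foxc1b line and 1129, 2004 and 584 against 287, 343 and 291 in the kdrl line, with log2 sort effects of 4.97 (SE 0.78, adjusted p = 0.0181) and 1.84 (SE 0.38, adjusted p = 0.0126). The others were actn1, which encodes the actin crosslinker alpha-actinin (3.65 and 1.33), fhl3a, a LIM domain gene (3.07 and 1.05), kctd12.2 (3.33 and 1.45) and the unnamed locus LOC108179332 (3.72 and 1.40, named after its values were seen). With the kdrl block actn1 (adjusted p = 0.0892), fhl3a (adjusted p = 0.0721) and LOC108179332 (adjusted p = 0.0631) were no longer called in the acta2/foxc1b line. Without acta2/foxc1b negative replicate 2 the class held 51 genes, these 6 among them. With equal weights or by edgeR it held 10 genes and none of these 6, and with equal weights each of the 6 was called in the acta2/foxc1b line but not in the kdrl line.

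Of the 9 genes lower in both positive sorts, 6 were photoreceptor genes. Without acta2/foxc1b negative replicate 2 the class held 164 genes, 24 of them on the photoreceptor list, and 7 of the 9 stayed in it, while sst1.1 and si:ch211-170a17.1 did not. The rhodopsin gene rho, for the light receptor of rods, had 9.80 and 1.11 normalized read counts in acta2/foxc1b positive and 2410.5, 772 and 10732 in negative libraries, and 687, 3207 and 563 in kdrl positive and 31622, 27708 and 7185 in kdrl negative libraries. Positive libraries lay below negative ones in both lines, with log2 sort effects of -9.15 (SE 1.53, adjusted p = 0.023) and -4.10 (SE 0.74, adjusted p = 0.00622). The blue cone opsin gene opn1sw2 had sort effects of -8.20 and -4.27, the cone arrestin gene arr3a -7.66 and -3.96, and the cone phosphodiesterase gene pde6h -6.01 and -3.99. The recoverin genes rcvrn2 (-7.43 and -3.65) and rcvrn3 (-6.91 and -2.57) completed the photoreceptor set. The somatostatin hormone genes sst1.2 (-8.33 and -4.61) and sst1.1 (-6.65 and -2.47), which may share reads, and the unnamed si:ch211-170a17.1 (-5.42 and -1.89, named after its values were seen) were the others. The difference between the lines had an adjusted p of 0.167 for rho and 0.509 for pde6h, and a miss of the threshold does not show equal effects. Without acta2/foxc1b negative replicate 2, rho (adjusted p = 0.0312), rcvrn2 (0.0405), rcvrn3 (0.0251) and sst1.1 (0.0484) differed between the lines, with the larger fall in the acta2/foxc1b line. With the kdrl block rho and sst1.2 stayed called in both lines, and opn1sw2 (adjusted p = 0.106), pde6h (0.0717), arr3a (0.0783), rcvrn2 (0.0631), rcvrn3 (0.0547), sst1.1 (0.113) and si:ch211-170a17.1 (0.0854) were not called in the acta2/foxc1b line. With equal weights each of the 9 was called in the acta2/foxc1b line. In the kdrl line only pde6h (adjusted p = 0.0351) and sst1.2 (0.0484) were then called, and rho (0.102) was not. The class held 7 genes with equal weights and 3 by edgeR, each time 2 of the 9 among them. By DESeq2 it held 106, with 7 of the 9.

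**Figure D5:**
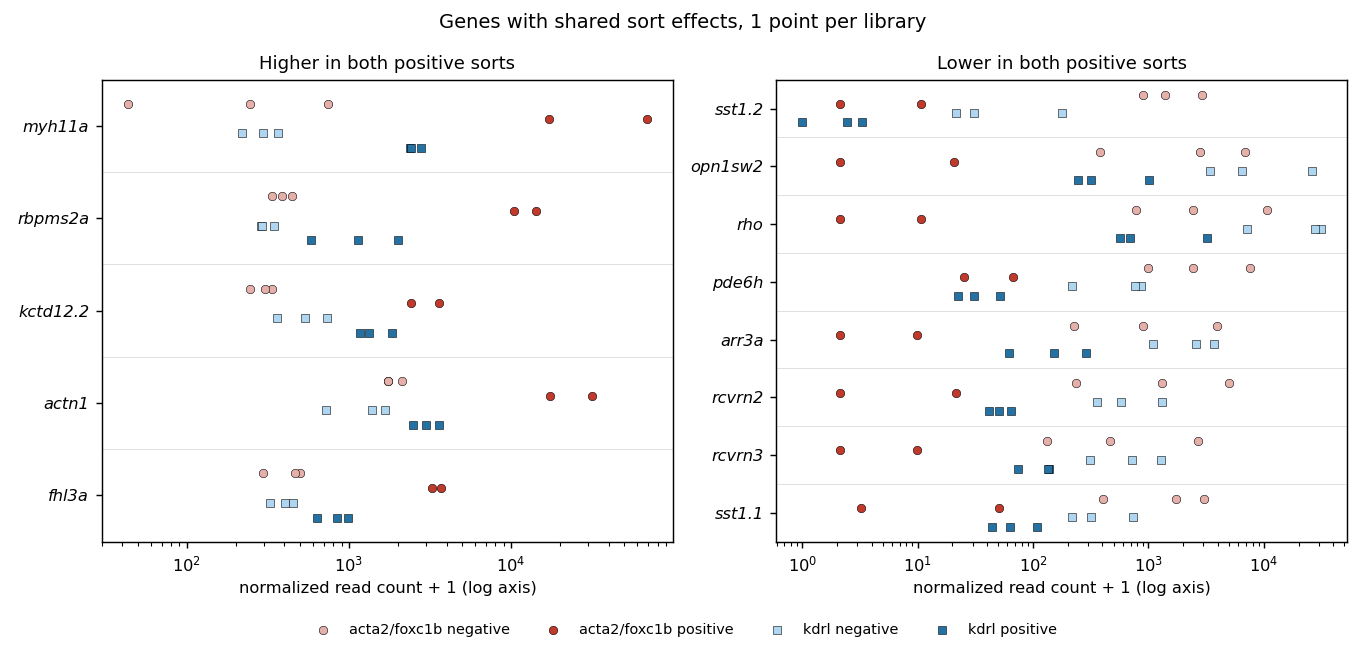
Normalized read count plus 1 on a log axis, 1 point per library, for the named genes higher (left) or lower (right) in both positive sorts. Naming of these genes required no overlap in either line. For myh11a both positive groups lie above their negatives, and for rho and sst1.2 both lie below.

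Over the 44 photoreceptor and retina genes tested the medians were -4.11 and -2.94, with 6 called lower in the acta2/foxc1b line (15 by edgeR and 31 by DESeq2) and 24 in the kdrl line (1 by edgeR and 23 by DESeq2). Neuron genes had medians of -2.35 (-4.04 without acta2/foxc1b negative replicate 2) and -1.31 over 37 genes, and neural progenitor and glia genes -2.49 and -1.32 over 33. None of either list was called in the acta2/foxc1b line by limma, where 7 and 13 were lower at an unadjusted p under 0.05. There edgeR called 0 and 4 of them lower, and DESeq2 20 and 13. Lens genes, mostly crystallins, had medians of -5.32 and -1.45 over 38 genes, with 3 (21 by edgeR) and 2 called lower. Epidermis genes had medians of opposite sign, -3.28 and 1.18 over 44 genes, with 1 called lower in the acta2/foxc1b line (9 by edgeR) and 1 called higher in the kdrl line. The epidermis median in the acta2/foxc1b line was -1.93 without negative replicate 2. Medians were -0.34 (-0.51 without that library) and 0.80 for 52 cell cycle genes, -0.23 and 0.75 for 57 dissociation and stress genes (0.52 in the acta2/foxc1b line without negative replicate 2) and -0.10 (-0.17 without it) and -0.39 for 24 pigment cell genes. No gene of these 3 lists was in any of the 4 classes.

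The 6 libraries of the acta2 line, Tg(acta2:egfp), at 4 days post fertilization, were used neither in the classes nor in the difference, and they give the same measure in other embryos. In that line 3.26% of 20582 genes tested were called higher in positive cells and 3.75% lower. Of the 172 genes higher in acta2/foxc1b and lower in kdrl positive cells, 61 were called higher in acta2 positive cells and 152 had a positive estimate, with a median log2 sort effect of 1.2. Of the 125 genes of the reverse class tested there, 33 were called lower and 113 had a negative estimate, with a median of -1.70. Of the genes shared by both sorts, 4 of 6 were also called higher and 8 of 9 also called lower. Of 24 pericyte and mural genes tested in the acta2 line 8 were called higher, and of 26 tendon and fibroblast genes 7. Of 47 head mesenchyme transcription factors 8 were called higher and 2 lower. Named genes of the first class were divided. foxf1 (log2 sort effect in the acta2 line 0.93), ifitm1 (-0.10), col6a1 (1.56), pdgfrb (1.72), cspg4 (0.88), twist1a (0.91), foxl1 (0.45) and alx1 (-1.29) were not called there. elnb (5.83), fbln5 (3.94), gucy1a3 (4.58), acana (3.34), cd248a (2.28) and notch3 (1.90) were called higher there. The skeletal muscle list did not do the same, with a median of -0.43 over 45 genes in the acta2 line and 4 called lower, against 2.93 in the acta2/foxc1b line. smyhc1 had 1.45 there, srl 0.12 and casq2 0.78, and these did not pass the test. myl13, on the cardiac muscle list, was called higher there (1.88, adjusted p = 0.0212). Of 27 cardiac muscle genes tested in the acta2 line, 10 were called higher and 0 lower, with a median of 1.88. Both lines carry an acta2 reporter, and whether the sort effects of these muscle genes differ between them was not tested. Among the reverse class ikzf1 (-4.69), rgs13 (-4.20), ccr9a (-3.46) and lmo2 (-2.39) were called lower. The digestive genes ctrb1 (-1.22) and prss59.2 (-0.42) were not called. Neither were the blood cell genes lyz (-1.83), npsn (-1.14), blf (-2.52), gata1a (-3.73) and slc4a1a (-2.69) or the endothelial genes fli1b (-0.70) and flt1 (0.05). Of 35 leukocyte genes tested in the acta2 line, 4 were called lower and 0 higher.

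In the authors' deposited table the adjusted p was under 0.05 for 2768 genes in the acta2/foxc1b comparison (11.5%) and for 3028 in the kdrl comparison (13.3%). Of these, 662 were called in both, which is 23.9% of the first list and 21.9% of the second. By the authors' deposited fold changes 99 of the 662 were higher in both, 259 lower in both, 174 higher in acta2/foxc1b and lower in kdrl positive cells and 130 the reverse. Genes with an adjusted p in both of the authors' comparisons numbered 21514. Of the opposite genes, 109 of the 172 and 74 of the 131 were called in both comparisons of the authors' deposited table in the same directions, as were all 15 shared genes. The authors' calls come from the same libraries by which these genes were chosen, so this overlap follows largely from the choice and is no separate support. The authors' deposited table so holds 358 shared and 304 opposite genes. With a call asked in each line, limma gave 6 genes higher in both, 9 lower in both, 12 higher in the acta2/foxc1b and lower in the kdrl line and 9 the reverse.

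At the edge of the classes, the gene with the smallest qualifying effect was actn3a (1.01) in the first opposite class, and acta1a (0.997) lay just outside. In the reverse class gata1a (1.05) lay just inside and gpr182 (0.978) just outside. By adjusted p, fat1a (0.0499) and mmp13a (0.0495) were the last genes inside.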

How the data were processed

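RNA was isolated with TRIzol from sorted zebrafish cells and sequenced. Per the submitters' processing notes, bcl2fastq 2.14, CASAVA 1.8.2, featureCounts 1.5.2, DESeq2 1.20.0 and build GRCz11 were used, and the aligner is not given in the sources used here. The authors deposited a signal per gene and library, the read count divided by a size factor, called the normalized read count here. The acta2 and acta2/foxc1b libraries were scaled together by the authors and the kdrl libraries apart, so levels were compared within a line, and between lines as differences of sort effects. All values (100%) came out as whole reads within a tolerance of 0.1 read, and the count tests ran on those. The authors also deposited log2 fold changes and adjusted p-values, which were used only for the counts credited to them.

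A gene was tested where 2 or more acta2/foxc1b libraries and 3 or more kdrl libraries reached a value of 10. Values were fitted as log2(value + 1) with limma 3.58.1 in R 4.3.3 (trend, 1 fit over 11 libraries with 4 group means and 1 weight per line), so sort effects and differences are on the log2(value + 1) scale and understate changes of low genes. P-values were two-sided and adjusted by Benjamini-Hochberg over all 21698 genes, with 0.05 as the threshold. Only the test of the difference in the main fit was tried on simulated counts. Those held no library set apart from its group, as acta2/foxc1b negative replicate 2 was. The sort effects of each line and the alternatives were not tried in this way. Alternatives used edgeR 4.0.16, DESeq2 1.42.0, other scalings, filters, weights and blocks, and each library left out. Counting intervals cover counting error only.

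Replicate numbers were taken to pair the kdrl libraries, since the deviations of same-numbered libraries from their group means correlated at 0.458, 0.132 and 0.472. The pairing rests on these values, of which 0.132 is weak. The main fit did not use it, and the kdrl block is an alternative. The 2 shared numbers of the acta2/foxc1b line gave 0.142 and 0.0553 and were not taken as pairs.

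Named genes were the reporters and sort markers, then per opposite class the 12 genes, and per shared class up to 10, with the largest effects among those with a gene symbol, a group mean of at least 100 and no overlap in either line, and up to 4 class members per gene list. Of 942 list symbols 913 matched the table. The classes, lists and rules were chosen with earlier results of these data known, and the acta2 line comparison was added after the data were seen. A planned description of promoter motifs was not made, since promoter sequences were not used here.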

Additional observations from a re-analysis of the deposited data

Results flagged for a closer look

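The sort effect differed between the lines by the test of the difference itself for 232 genes with the higher signed effect in the acta2/foxc1b line and for 179 genes with the higher signed effect in the kdrl line (limma, Benjamini-Hochberg adjusted p under 0.05, 21698 genes). elnb and ctrb1 had the largest differences in each direction. Line, stage, fixation and library kit cannot be told apart in this design.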

How the results depend on the processing

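Counts are given for the difference, the acta2/foxc1b effect, the kdrl effect, the 2 opposite classes (higher, then lower, in acta2/foxc1b positive cells) and the shared classes (higher, then lower), which were 411, 132, 1406, 172, 131, 6 and 9. With equal weights the difference was called for 705 genes, the acta2/foxc1b effect for 1106 and the kdrl effect for 219, and the first opposite class held 280 and the shared higher class 10, none of them among the 6. The shared lower class then held 7, with 2 of the 9 among them. With each line fitted alone the acta2/foxc1b effect was called for 6 genes, and both shared classes held 0. That setting took its difference from the equal-weights fit, so its 705 and 280 repeat the counts above and are no separate result. edgeR gave 784, 1037, 187, 324 for the first opposite class, and 10 and 3 for the shared classes (0 and 2 of them shared with the 6 and 9), and DESeq2 gave 2351, 3344, 656, 497, 75 and 106 for all but the kdrl effect. The acta2/foxc1b effect was called for 200 genes with log2(value + 8), where 10 were higher in both, and for 210 with no minimum value. At log2 sort effects of at least 2 the opposite classes held 58 and 81 genes and the shared higher class 1. The causes of these moves were not tested.

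With the replicate block in the kdrl line the acta2/foxc1b effect was called for 78 genes, the kdrl effect for 3633 and 4 genes were lower in both, while the difference was called for 389. The block in both lines, which drops acta2/foxc1b negative replicate 3, the number with no partner, from the comparison, gave 35, 0 (1832 at an unadjusted p under 0.05), 3942, 19, 14, 0 and 0.

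With 1 library left out in turn, the difference was called for 0 to 1080 genes, the acta2/foxc1b effect for 0 to 1533 and the kdrl effect for 507 to 1828. The opposite classes held 0 to 348 and 0 to 304 genes, and the shared classes 0 to 51 and 0 to 164. The acta2/foxc1b effect had 0 calls without negative replicate 1 (1979 at an unadjusted p under 0.05), positive replicate 1 (2719) or positive replicate 2 (1009), 1 with negative replicate 3 left out and 1533 without negative replicate 2. The kdrl effect was called for 507 genes when kdrl negative replicate 2 was left out, for 596 when negative replicate 1 was, and for 853 when negative replicate 3 was. Of the 87 named genes none changed the sign of its difference past the threshold under the 22 alternatives. Of 75 class members 73 kept their class without acta2/foxc1b negative replicate 2, and 57 with the kdrl block. Of the 87 named genes 81 were past the threshold in the main fit. For the shared genes, whose difference was not called, this means the call in both lines. Other settings took the call from more of the 81. It was lost by 61 with the block in both lines, 49 without acta2/foxc1b negative replicate 3 and 43 without negative replicate 1. With the kdrl block 19 lost it, and without negative replicate 2 only 1 did. Losses without an acta2/foxc1b positive replicate are not counted here, since 1 library is then left in that group. Quantile normalization moved the median of all genes in the acta2/foxc1b line from -0.12 to 0.04 and its calls from 69 higher and 63 lower to 106 and 54.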
